A study of Mus musculus with 42 samples.

Results

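The mouse genes a (agouti, also called nonagouti), Raly, Eif2s2 and Ahcy lie side by side on chromosome 2 at the locus that is rearranged in the yellow allele of KK/Ay mice. Members were all probes whose gene name in the array files is one of these 4 symbols, which gave 8 probes of 4 genes, out of 34891 probes of 21186 gene symbols on the array. RNA of aorta and of skeletal muscle from 3 male mice in each of 7 groups was hybridized to 42 single-colour Agilent arrays. The healthy group (G) was C57BL/6 mice. The diabetic group (A) was KK/Ay mice with spontaneous diabetes and no model treatment. The macroangiopathy group (C) was KK/Ay mice that for 8 weeks ate a high-fat diet and drank water with 0.2 mg/ml L-NAME, which blocks nitric oxide synthase. Groups B, D, E and F were mice of that same model treated with SHENQI compound, with its yangyinyiqi part, with its huoxue part or with rosiglitazone. The study's methods give an age of 18 to 20 weeks for the mice taken into the study. Each group was also gavaged for 8 weeks, with saline in groups G, A and C. The age at tissue collection was not given. All 36 arrays outside group G are therefore of KK/Ay mice, which carry the yellow allele, and the 6 healthy arrays are of another strain, so that strain, yellow allele and diabetes cannot be told apart in any comparison with G. The labels do not say whether aorta and muscle came from the same mice, so the 12 arrays of a comparison may come from 6 animals. All comparisons with G share its 6 arrays, and all comparisons with C share those of C. The arrays were scanned on 4 days. Healthy muscle arrays were scanned on days 2 and 3. KK/Ay muscle arrays were scanned on day 1, apart from rosiglitazone arrays 2 and 3, on day 3. Aorta arrays of healthy and of KK/Ay mice were scanned on days 2 and 4, most KK/Ay ones on day 2. Scan day and strain can therefore not be fully told apart, least of all in muscle.

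Agouti protein is a secreted antagonist of melanocortin receptors and is normally made in the skin, where it switches hair pigment from black to yellow. In the yellow allele a deletion joins the promoter and noncoding first exon of Raly to the coding exons of a, so that agouti is made in most tissues, and the same deletion removes the coding part of Raly and the whole of Eif2s2 from that chromosome. The allele is lethal when homozygous, and yellow mice keep an intact copy of both genes on the other chromosome. Raly encodes an RNA-binding protein of the hnRNP family, and Eif2s2 encodes the beta subunit of the translation initiation factor eIF2. Ahcy encodes adenosylhomocysteinase, which splits S-adenosylhomocysteine in the methionine cycle, and lies beside a outside the deletion.

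The probe of a, A_52_P90577, is printed in 10 spots of each array. Its 60 bases match mm9 chr2:154871493-154873446 on the plus strand, a span of 1954 bases, so the sequence crosses an intron and reads spliced coding RNA. It is shown because it detects the exons that the yellow allele keeps. Of the 3 Ahcy probes, A_52_P176160 at chr2:154891321-154891380 on the minus strand reads coding sequence. The stretch of genome from which the yellow allele takes its start of transcription lies before Raly, and 60 bases of it are given from RefSeq (GRCm38.p6, chr2:154790860-154790919, plus strand), with the letters CCGCCC, the complement of the GC-box letters GGGCGG, in capitals.
a probe A_52_P90577: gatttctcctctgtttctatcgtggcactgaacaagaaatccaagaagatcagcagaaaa
Ahcy probe A_52_P176160: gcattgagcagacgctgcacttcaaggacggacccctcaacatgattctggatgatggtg
Raly upstream: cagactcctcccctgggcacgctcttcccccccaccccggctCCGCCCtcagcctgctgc

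All 4 genes had an entry in the RefSeq promoter table (GRCm38.p6), and the 250 bases before each start were searched on both strands for the GC-box letters GGGCGG, for the TATA-box letters TATAAA and for the CCAAT box. The Raly window was 72.8% G or C with 19 CG dinucleotides, and 6.03% of the 32851 promoters in the table had at least this G and C content. It held 5 copies of GGGCGG, a number that 1.93% of all promoters reach or pass, while 32.7% hold at least 1. Only the first 60 of these 250 bases, printed above, lie before the earliest start that RefSeq gives for Raly. They hold 1 of the 5 copies. The window of a was 50% G or C with 3 CG dinucleotides and no GGGCGG. Eif2s2 had 51.6% with 18 CG dinucleotides, and Ahcy 52.8% with 9 and 1 GGGCGG. The letters TATAAA were found in none of the 4 windows, against 12.4% of all promoters, and CCAAT once each before a and Ahcy, against 33.8% of all. These matches describe the letters of the 4 windows.

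The other probes lie on the same stretch of mm9. Raly is read by A_51_P337246 at chr2:154692865-154692924 (plus strand). Eif2s2 is read on the minus strand by A_51_P470724 at chr2:154697153-154697212, by A_52_P107354 at chr2:154698420-154698479 and by A_52_P263644 at chr2:154714136-154714195, of which the last stands for a cDNA clone in the file. Ahcy is also read by A_51_P473533 at chr2:154885817-154885876, which the file describes as a predicted gene, and by A_51_P473528 at chr16:46153220-46153285, on another chromosome. Both of these may detect near-identical copies of Ahcy, which was not tested, so their signal is uncertain as a measure of Ahcy itself.

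Between 57.9% and 73.5% of probes per array were well above background in aorta, and between 49.1% and 65.2% in muscle. Values below are log2 intensities after background correction and quantile normalization. Muscle arrays showed skeletal muscle markers at a mean of 16.6 to 17.3. KK/Ay aorta arrays showed smooth muscle markers at 13.5 to 15.7, while the 3 healthy aorta arrays were at 10.68, 14.7 and 13.7. Healthy aorta array 1, the one at 10.68, also had the highest leukocyte markers of the aorta arrays (11.6, against 8.74 to 10.9 in KK/Ay aorta), and healthy muscle array 3 the highest keratinocyte markers of all (14.1, against 6.68 to 13.5 in KK/Ay muscle). Results in KK/Ay against healthy mice are therefore also given without these 2 arrays, a setting chosen after the data were seen. In bulk tissue, fewer cells of a type and less RNA per cell cannot be told apart.

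Agouti RNA was well above background in both tissues of every KK/Ay group and in no healthy sample. In healthy aorta the 3 arrays of a read 5.30, 5.49 and 5.46, and in healthy muscle 5.56, 5.38 and 5.43, and the probe was well above background on 0 of 6. In the 18 KK/Ay aorta arrays it ranged from 8.77 through a median of 9.08 to 9.61, and in the 18 KK/Ay muscle arrays from 8.87 through 9.55 to 10.2, and it was well above background on 36 of 36. The lowest KK/Ay array lay more than 3 log2 units above the highest healthy array in both tissues. Because the healthy arrays give only a bound, the difference is at least 11.01-fold in aorta and at least 14.3-fold in muscle of diabetic mice. Here the mean of the diabetic arrays was set against the lowest signal that counted as well above background on the healthy arrays, or the probe's own where higher. Across the other 5 KK/Ay groups the bound ran from 10.2-fold (F) to 11.8-fold (B) in aorta and from 12.9-fold (C) to 19.5-fold (E) in muscle.

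**Figure D1:**
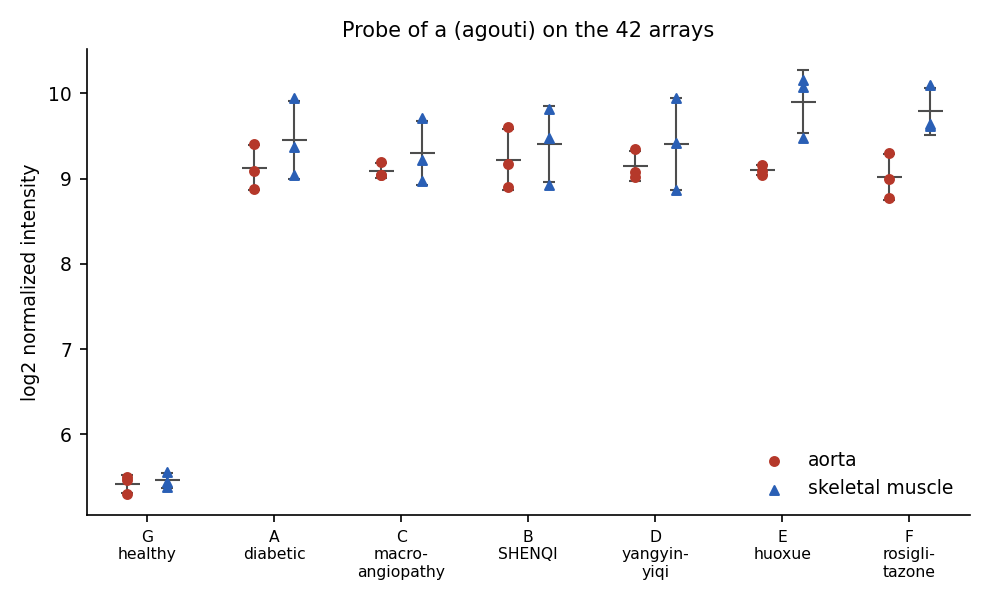
Log2 intensity of the agouti probe on each of the 42 arrays, by group and tissue, with points for arrays and lines for the mean and SD of each set of 3. The 6 healthy arrays lie between 5.30 and 5.56 and are not well above background, and all 36 KK/Ay arrays lie at 8.77 or higher.

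In limma the fitted log2 difference of all KK/Ay arrays from the healthy arrays was 3.89 (standard error 0.14, adjusted p = 4.33e-20), higher in 36 of 36 arrays. The probe entered this fit and those below only through KK/Ay arrays, since no healthy array was well above background. Its p-values are therefore given as a description and add no support to the bounds above. In this comparison 29.7% of all 29144 probes tested passed an adjusted p of 0.05. Each KK/Ay group on its own was also higher: the difference was 3.85 in A vs G (adjusted p = 6.22e-08, with 4.66% of all probes called), 3.88 in B vs G (3.74e-07, 2.1% called), 3.76 in C vs G (1.79e-08, 5.61% called), 3.84 in D vs G (1.11e-07, 5.3% called), 4.06 in E vs G (1.13e-07, 2.54% called) and 3.97 in F vs G (1.33e-07, 2.55% called). Within 1 slide, with no test, diabetic minus healthy aorta was 4.03 and rosiglitazone minus healthy muscle 4.16. The size of the fitted difference followed the background correction: in KK/Ay against healthy mice it was 2.63 with an offset of 50 added, below the bounds given above, and 6.89 with the processed signal of the scanner software. The call was kept under all settings tried, and without the 2 healthy arrays named above the difference was 3.86.

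Genes that define melanocytes, the skin cells on which agouti acts, were measured beside it. Tyr and Tyrp1, enzymes of pigment synthesis, were well above background on 0 of 42 arrays, but Dct was so on 36 by 1 of its probes, Pmel on 30 and Mlana on 24. Of their 4 probes tested in KK/Ay against healthy mice, 1 passed (against 29.7% of all probes), that of Pmel, which was 0.21 higher. The mean of 5 melanocyte markers ran from 5.57 to 5.96 in healthy and from 5.69 to 6.34 in KK/Ay aorta. In muscle that mean was 5.77 to 6.02 in healthy and 5.84 to 6.35 in KK/Ay arrays. Keratinocyte markers, which stand for skin, ran from 6.39 to 6.56 in healthy and from 6.38 to 10.5 in KK/Ay aorta. In muscle they ran from 6.79 to 14.1 in healthy and from 6.68 to 13.5 in KK/Ay arrays. Their part in the level of agouti was not tested.

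Raly was lower in KK/Ay mice, with a call in the fit of muscle and none in that of aorta. The difference between the tissues did not pass. Healthy aorta read 13.21, 12.68 and 11.85 and healthy muscle 12.32, 12.46 and 11.68. KK/Ay aorta ran from 11.03 through a median of 11.95 to 12.31, and KK/Ay muscle from 10.65 through 11.1 to 11.8. In aorta 7 of 18 KK/Ay arrays lay below all healthy arrays, and in muscle 15 of 18, so the groups overlapped in both tissues. The fitted difference in limma was -0.86 (standard error 0.19, adjusted p = 0.000711), which put Raly at 55.0% of the healthy level (95% confidence interval 42.4% to 71.5%). Muscle alone gave -0.99 (adjusted p = 0.000639, with 34.9% of all probes called) and aorta alone -0.73 (adjusted p = 0.117, with 14.2% called). Without the 2 healthy arrays that stand apart it was -0.82 (adjusted p = 0.00505), and with scan day as a block -0.82 as well, but with adjusted p = 0.126. Leukocyte markers were also lower in KK/Ay muscle (8.46 to 8.97) than in all 3 healthy muscle arrays (9.21 to 9.64), and brown adipocyte markers ran from 11.99 to 14.2 in KK/Ay aorta against 13.1 to 15.6 in healthy aorta. The part of these markers in the result was not tested. In the 12-array comparisons with G none was called: the differences ran from -0.65 in A vs G (adjusted p = 0.161) to -0.97 in B vs G (0.0952), with -0.90 (0.0503) in C vs G.

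Eif2s2 was lower in KK/Ay mice by both probes tested, by amounts that differed. By A_52_P107354, healthy aorta read 13.23, 11.71 and 11.83 and healthy muscle 13.36, 13.22 and 13.42. KK/Ay aorta ran from 10.3 through 10.6 to 11.2, and KK/Ay muscle from 12.1 through 12.3 to 12.8. All 18 KK/Ay arrays lay below all healthy arrays in each tissue. For this and the other counts of arrays outside the healthy range, the share over all probes was not computed. The fitted difference in limma was -1.32 (standard error 0.13, adjusted p = 2.62e-09, with 29.7% of all probes called), which is 40.0% of the healthy level (95% confidence interval 33.4% to 47.9%). It was -1.65 in aorta (adjusted p = 0.000335, with 14.2% of all probes called) and -0.99 in muscle (4.65e-07, 34.9% called). The aorta value rests in part on healthy aorta array 1, the highest at 13.23: without it and healthy muscle array 3 the difference over both tissues was -1.06, and it kept its call.

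Every KK/Ay group had lower Eif2s2 by this probe in the 12-array comparisons. In limma the difference was -1.44 in A vs G (adjusted p = 0.00429), -1.38 in B vs G (0.0199), -1.52 in C vs G (0.00596), -1.34 in D vs G (0.0109), -1.22 in E vs G (0.0229) and -1.03 in F vs G (0.0495). Of all probes, from 2.1% (B vs G) to 5.61% (C vs G) were called in these comparisons. Some of these calls of Eif2s2 hung on single arrays. B vs G lost its call without SHENQI muscle array 1 or 3, E vs G without huoxue aorta array 2 or 3 or huoxue muscle array 2, and F vs G without any array but healthy aorta 1 or 2, with differences from -1.12 to -0.79 in F vs G, from -1.30 to -0.96 in E vs G and from -1.48 to -1.14 in B vs G. Within a slide, with no test, diabetic minus healthy aorta was -2.05 and rosiglitazone minus healthy muscle -0.59.

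The second Eif2s2 probe, A_51_P470724, gave a smaller decrease of the same direction. Healthy aorta ran from 8.19 to 8.55 and KK/Ay aorta from 7.47 to 8.32, with 17 of 18 KK/Ay arrays below all healthy ones. In muscle, healthy arrays ran from 9.43 to 10.3 and KK/Ay arrays from 9.14 to 9.89, with 5 of 18 below. In limma its difference was -0.51 (standard error 0.10, adjusted p = 0.000387), or 70.4% of the healthy level (95% confidence interval 60.9% to 81.4%), an interval that does not reach that of A_52_P107354. In the 12-array comparisons it ran from -0.41 to -0.61, and none was called. The third probe, A_52_P263644, was well above background on 16 of 42 arrays and was not tested.

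**Figure D2:**
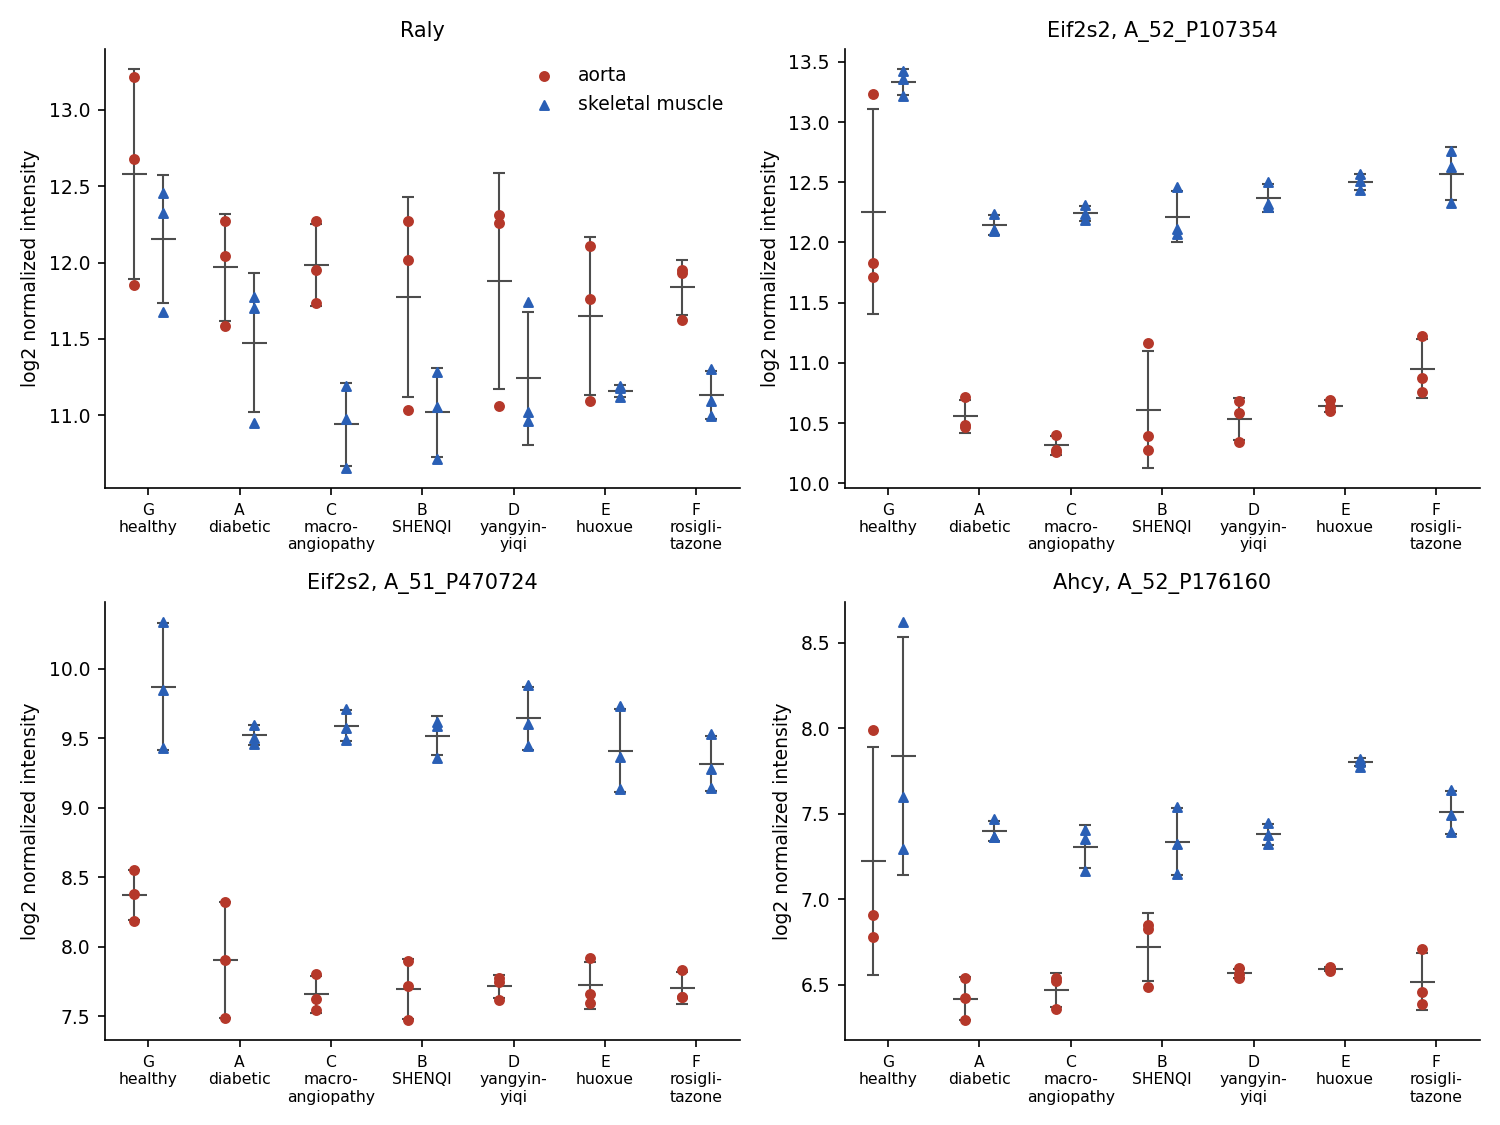
Log2 intensity of Raly, both tested Eif2s2 probes and the coding Ahcy probe on each array, by group and tissue, with points for arrays and lines for the mean and SD of each set of 3. By A_52_P107354 all 36 KK/Ay arrays of Eif2s2 lie below the healthy arrays of their tissue, while Raly overlaps in both tissues.

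Ahcy was lower on average in KK/Ay mice, and this rested on 2 healthy arrays. The coding probe A_52_P176160 read 7.99, 6.91 and 6.78 in healthy aorta and 7.29, 7.60 and 8.62 in healthy muscle, and KK/Ay arrays ran from 6.29 through 6.54 to 6.85 in aorta and from 7.15 through 7.396 to 7.82 in muscle. The highest value in each tissue belonged to healthy aorta array 1 and healthy muscle array 3, the arrays with high leukocyte or keratinocyte markers, and the part of those markers in the result was not tested. In aorta 16 of 18 KK/Ay arrays were below all healthy arrays, and in muscle 2 of 18. The fitted difference in limma was -0.53 (standard error 0.12, adjusted p = 0.00145), or 69.2% of the healthy level. Without both arrays it was -0.14 (adjusted p = 0.175).

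A_51_P473533 gave -0.44 (standard error 0.16, adjusted p = 0.0377). It read from 8.85 to 10.8 in healthy aorta, where KK/Ay arrays lay between 9.03 and 9.31, and from 9.85 to 11.5 in healthy muscle, where they lay between 9.95 and 10.3. No KK/Ay array lay outside the healthy range. The call was lost without healthy aorta array 1 (-0.14, adjusted p = 0.468) or healthy muscle array 3 (-0.19, adjusted p = 0.345), and without both the difference turned to 0.11. In the 12-array comparisons with G no Ahcy probe was called, with differences from -0.34 to -0.64 for A_52_P176160.

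The Ahcy probe on chromosome 16, A_51_P473528, varied more among slides than among groups. On the 4 arrays of slide 1 it read from 5.69 to 7.01, on slide 3 from 6.40 to 7.10 and on slide 11 from 5.76 to 6.75. On the other 8 slides it read from 8.51 to 9.33, apart from healthy muscle array 3 on slide 4, at 10.95. Slides 1 and 3 hold 4 of the 6 healthy arrays. Its fitted difference in KK/Ay against healthy mice was 0.57 in limma (standard error 0.42, adjusted p = 0.324), and it rose to 1.28 without healthy muscle array 3 (adjusted p = 0.0074). Across the 42 arrays, each centred on its tissue, the Pearson correlation of this probe with A_51_P473533 and A_52_P176160 was near 0 (0.11 and -0.16), whereas those 2 probes correlated at 0.87.

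**Figure D3:**
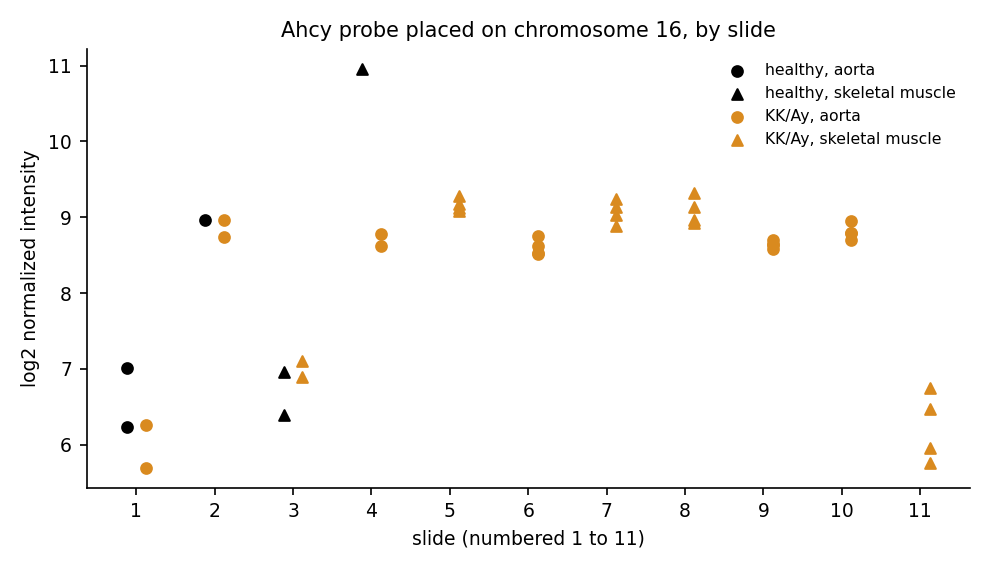
Log2 intensity of the Ahcy probe on chromosome 16, A_51_P473528, on each array by slide, with healthy arrays in black, KK/Ay arrays in orange, circles for aorta and triangles for muscle. The 12 arrays of slides 1, 3 and 11 lie at 7.10 or lower and all others at 8.51 or higher.

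The 7 probes tested in KK/Ay against healthy mice can be set side by side with their intervals. In this comparison 29.7% of all probes were called. Only a was higher among the called members, and the 5 called decreases ordered as Eif2s2 by A_52_P107354 (-1.32), Raly (-0.86), Ahcy by A_52_P176160 (-0.53), Eif2s2 by A_51_P470724 (-0.51) and Ahcy by A_51_P473533 (-0.44). The last 3 neighbours in this order differed by less than their standard errors. The difference between the tissues was tested for each probe, and no member passed (9.02% of all probes did in KK/Ay against healthy mice, 0.0039% in A vs G and 0.0886% in C vs G). It was nearest for Eif2s2 by A_52_P107354, at -0.66 for aorta minus muscle (adjusted p = 0.101). For a nothing can be read from this test, since its healthy arrays were not well above background in either tissue.

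**Figure D4:**
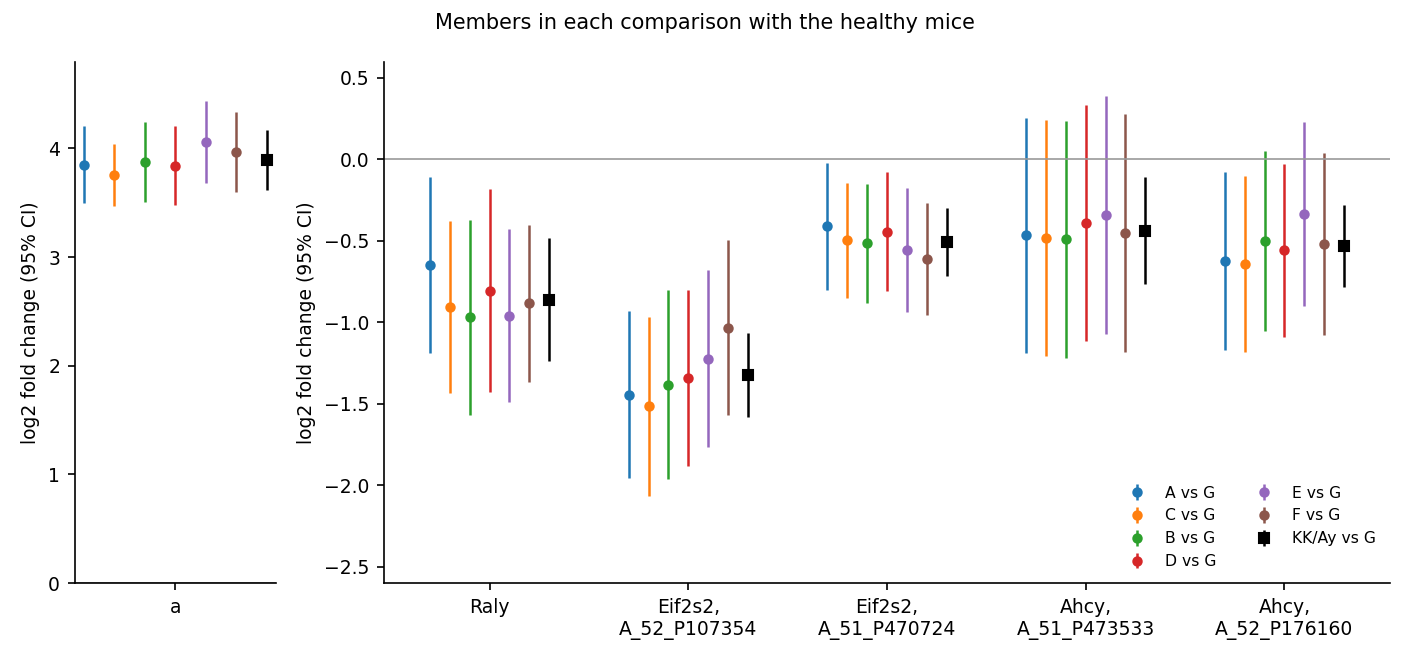
Fitted log2 fold change of the chromosome 2 member probes in each comparison with the healthy mice (A to F vs G, and all KK/Ay arrays as black squares), with bars for 95% confidence intervals and a separate axis for a. The values of a lie between 3.76 and 4.06, and those of all other probes lie below 0, with intervals that cross 0 for Ahcy in several comparisons.

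No member passed between KK/Ay groups in the 12-array fits, whether for the model or for a treatment. In C vs A, B vs C, D vs C and E vs C limma called 0% of probes after adjustment (1415, 880, 1030 and 4937 probes had an unadjusted p below 0.05), and in F vs C 0.00704%. For a the difference was -0.09 in C vs A (95% confidence interval -0.45 to 0.27), 0.12 in B vs C (-0.26 to 0.50), 0.08 in D vs C (-0.29 to 0.45), 0.30 in E vs C (-0.06 to 0.66) and 0.21 in F vs C (-0.15 to 0.56). These intervals leave room for changes of up to about 0.66 on the log2 scale. Means of a in the KK/Ay groups ran from 9.02 (F) to 9.22 (B) in aorta and from 9.30 (C) to 9.90 (E) in muscle, with SDs of 0.06 to 0.36 and 0.27 to 0.54 (n = 3).

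Eif2s2 by A_52_P107354 came nearest to a treatment difference, at 0.48 in F vs C (limma adjusted p = 0.122) and 0.29 in E vs C (adjusted p = 0.157). In muscle alone it was 0.26 higher in E vs C (adjusted p = 0.0367) and Ahcy by A_52_P176160 0.49 higher (adjusted p = 0.00527), in a fit that called 41.4% of all probes. The chromosome 16 probe fell by 2.95 in muscle in E vs C (adjusted p = 0.000173) and fell by 2.29 in F vs C (adjusted p = 0.000803), where 16.8% of all probes were called. The 3 huoxue muscle arrays all lie on slide 11, so that group and slide cannot be told apart there, and the 3 rosiglitazone muscle arrays on slides 3 and 11.

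Probes within 1000 kb of the a probe on chromosome 2 were then read. Of 73 other probes of 46 genes, 60 were tested in KK/Ay against healthy mice, and 15 of them passed (25%, against 29.7% of all probes), 8 higher and 7 lower. Their median absolute difference was 0.18, against 0.20 for all probes. In A vs G 4 of 52 passed (7.69%, against 4.66%). C130057N11Rik, which lies between the probes of Raly and Eif2s2, fell by 0.45 on the log2 scale. Itch, a ubiquitin ligase gene next to Ahcy, was lower by 2 probes (-0.59 and -0.53) and at 0.00 and -0.04 by its other 2. Further out, Acss2, which makes acetyl-CoA from acetate, was lower by 2 probes (-1.15 and -1.42) and at -0.24 by a further one that did not pass. Trpc4ap was lower by 1 of 5 probes (-0.26), and an unnamed cDNA was lower as well (-0.69). Among the higher ones, Gdf5, a growth factor gene, was at 0.74 (1.44 in aorta alone and 0.03 in muscle alone). Also higher were Trp53inp2 (0.62), 4930519P11Rik (0.57), Gss, a glutathione synthesis gene (0.46), and Cdk5rap1 (0.25). By 1 probe each, so were Chmp4b (0.34), Mmp24 (0.28) and Cbfa2t2 (0.25). The other probes of these last genes did not pass, at -0.19 for Chmp4b, 0.00 for Mmp24 and -0.07 and 0.04 for Cbfa2t2. None of the 60 came near the 3.89 of a.

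**Figure D5:**
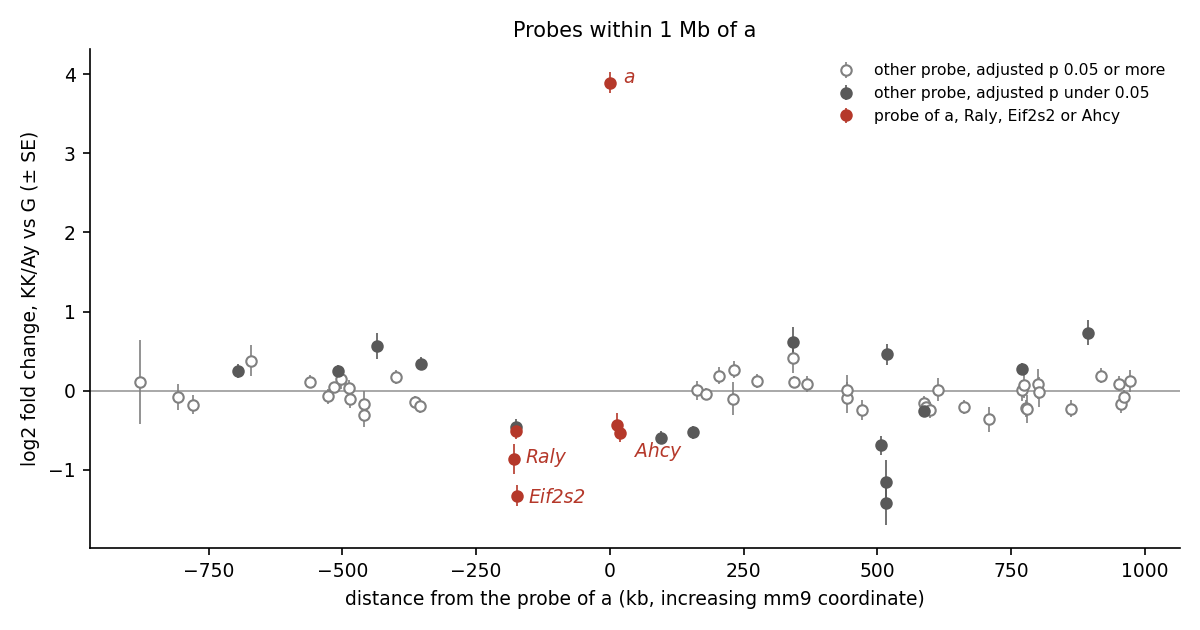
Fitted log2 fold change of KK/Ay from healthy arrays for each tested probe within 1000 kb of the agouti probe, against distance from that probe in kb, with bars for the standard error, members in red and other called probes filled. Agouti, at 3.89, is the highest point, and Eif2s2 and Acss2 are the lowest.

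Genes that work with the members were taken from lists. Of 24 probes tested for melanocortin signalling and pigment genes, 8 passed in KK/Ay against healthy mice, 5 higher and 3 lower, with a median of 0.03. Of all probes, 29.7% passed in that comparison. Agrp, the agouti-related antagonist of the same receptors, fell by 0.63, and Mrap, an accessory protein of melanocortin receptors, fell by 1.001. Mgrn1, a ubiquitin ligase needed for agouti action in pigment cells, was 0.33 higher. Kit, a receptor of pigment cell precursors, fell by 0.56, and Slc45a2 (0.67), Pmel (0.21) and, by 1 of 2 probes each, Atrnl1 (0.52) and Mitf (0.34) were higher. The receptors Mc1r (-0.19), Mc3r (-0.10 by the 1 probe tested) and Mc4r (0.06) and the co-receptor gene Atrn (from -0.07 to 0.06 by 3 probes) did not pass, and Mc5r was well above background on 8 of 42 arrays. In A vs G 2 of 20 passed, against 4.66% of all probes.

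For the eIF2 list, 11 of 29 probes passed in KK/Ay against healthy mice, 3 higher and 8 lower, with a median of -0.11, and 3 of 26 in A vs G. Of all probes, 29.7% and 4.66% passed in these comparisons, and nothing is read from the counts about the list. Eif2s1, the alpha subunit, fell by 0.77 by 1 probe, while its other probe was at -0.22 and did not pass. Eif2s3x, a gamma subunit, fell by 0.29 by 1 probe, while its other tested probes were at 0.53 and -0.14 and did not pass. Eif2ak1, a kinase of the alpha subunit, had called probes in both directions (-0.79 and 0.38). Eif5, whose protein triggers GTP hydrolysis on eIF2, was lower by 3 probes (-0.48, -0.33 and -0.27). Eif2a was lower by both of its probes (-0.61 and -0.34). Eif2d was higher by called probes at 0.48 and 0.33, and at 0.14 by a further one that did not pass.

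For the methionine cycle around Ahcy, 12 of 29 probes passed, 7 higher and 5 lower, with a median of -0.03, and 3 of 28 in A vs G. Gamt, which uses S-adenosylmethionine to make creatine, was 1.503 higher, Amd1, the S-adenosylmethionine decarboxylase, 1.52 and 0.70 higher by its 2 called probes, and Mat2a, which makes S-adenosylmethionine, 0.37 higher. Mtr (0.29 by 1 of 2 probes) and Mtrr (0.62 and 0.31), which remake methionine, were higher. Cth fell by 0.87 and Gnmt fell by 0.58, and Ahcyl1, a relative of Ahcy, was lower by 3 probes (-0.46, -0.53 and -0.35). Of 42 hnRNP probes, the family of Raly, 14 passed, 5 higher and 9 lower, with a median of 0.02, and 0 of 39 passed in A vs G in limma. Probes of 1 gene went both ways for Pcbp2 (-0.58, 0.44 and -0.25), Syncrip (0.53 and -0.24) and Hnrnpa2b1 (0.82 and -0.35). The shares of these lists lie near or above those of all probes in KK/Ay against healthy mice (29.7%), and in A vs G they go both ways around the 4.66% of all probes, so nothing is read from them about the lists.

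The genes whose values followed each member most closely across the 42 arrays, each array centred on its tissue, were listed by Pearson correlation. For a these were Pdxdc1 (0.97), Gdpd3 (0.96), Ccnb1ip1 (0.95), 2810408M09Rik (0.94) and Masp2 (0.94), none within 1000 kb of it and all with higher values in KK/Ay mice. For Eif2s2 by A_52_P107354, Eif2s1 on chromosome 12 ranked first (0.94), followed by Pigx (0.92), Zfp330 (0.89), Dhx40 (0.89) and Il18bp (0.88). Raly had no neighbour as close, with Larp1 (0.74), Farsa (0.72), Arl5b (0.72), Jmjd6 (0.71) and Srrm1 (0.71). Ahcy by A_51_P473533 went with Stfa2l1 (0.92) and Saa1 (0.91), an acute phase gene, and with 2010005H15Rik (0.91). All of these points share the split between KK/Ay and healthy arrays, and those of Ahcy the 2 healthy arrays that stand apart.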

How the data were processed

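Per the labels, total RNA was labelled with Cy3 and hybridized to 42 Agilent arrays, which the authors scanned with Feature Extraction 10.7. The deposited scanner files hold the intensity of 45018 spots, 1639 of them controls (8 files with all columns, 34 with fewer). A deposited table of normalized log2 values served as an alternative. Median intensities were corrected with normexp (offset 0, limma 3.58.1 in R 4.3.3), quantile normalized over 42 arrays, put on the log2 scale and averaged over spots, with 3451 irregular spots set to missing (for a, 5 of 420). A probe was well above background when at least 50% of its spots were. Groups came from the sample labels. A probe that was well above background on each of the 3 arrays of any set compared was fitted with lmFit and eBayes, with tissue as a term (12 arrays) or as 14 means (KK/Ay against G, 42 arrays), and p-values were adjusted by Benjamini-Hochberg over all probes tested. 95% confidence intervals come from these fits. The methods name an unadjusted threshold, in place of which an adjusted p of 0.05 was used. The fit was tested on simulated data. Coordinates are mm9, as in the files. Replicate numbers were not used to pair samples in the main fits. In the same tissue, 126 same-numbered pairs from different groups correlated from -0.58 to 0.66 (median -0.03). The 21 pairs of aorta and muscle with the same number and group correlated from -0.36 to 0.24 (median 0.01). With 3 arrays per set, these values cannot show whether both tissues came from the same mice. Figures were drawn in Python 3.11.15 with matplotlib 3.10.9. Named were the members, called neighbours, list genes and the 5 genes most like each member. Members and lists were chosen with earlier results of these data known. With 3 arrays per set, precision is limited by their number.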

Additional observations from a re-analysis of the deposited data

How the results depend on the processing

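Each result was recomputed with other background corrections (offset 50, subtraction, the processed signal), filters, normalizations and models, in each tissue alone, with slide, scan day or replicate number as a block, on the authors' log2 table, and with each array left out in turn. Scan day as a block and leaving out healthy aorta 1 and healthy muscle 3 together were chosen after the data were seen. Slide as a fixed block could not be fitted for any comparison with G, since most slides hold no healthy array. The calls of a in KK/Ay against healthy mice and in the 6 comparisons with G, and that of Eif2s2 by A_52_P107354 in KK/Ay against healthy mice (-1.65 to -0.99, and -0.75 as the mean over the gene's probes, less than the -0.86 of Raly), held under every setting with a test. Within a slide, a differed by 4.23 (slide 1) and 3.54 (slide 2) in B vs G, and Eif2s2 by -2.05 in A vs G (slide 1, which holds healthy aorta 1), -2.14 and -0.99 in B vs G (slides 1 and 2) and -0.59 in F vs G (slide 3).

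Other calls depended on the setting, and the cause was not tested. With the aorta alone, Eif2s2 by A_52_P107354 lost its call in A vs G (-1.70) and C vs G (-1.94), as without a tissue term (-1.44 and -1.52), where the values are the same and their error is larger, and so it did in B, D, E and F vs G. In KK/Ay against healthy mice, Raly lost its call in aorta alone (-0.73) and with scan day (-0.82), and Eif2s2 by A_51_P470724 in muscle alone (-0.37). Ahcy by A_52_P176160 lost it without the 2 healthy arrays (-0.14), with scan day (-0.18) and in muscle alone (-0.38). Ahcy by A_51_P473533 turned to 0.11 without the 2 healthy arrays and lost its call in aorta alone (-0.50), as the mean over the gene's probes (-0.13), with the processed signal (-0.47), scan day (-0.041), in muscle alone (-0.37), with slide as a random block (-0.44) and in the authors' table (-0.46). With 1 array left out it ran from -0.63 to -0.14. The chromosome 16 probe A_51_P473528 gained a call without the 2 healthy arrays (1.18) and with scan day (0.78), and ran from 0.14 to 1.28 with 1 array left out.

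With the replicate block, the values in KK/Ay against healthy mice were 3.89 for a, -0.86 for Raly and -1.32 for Eif2s2, and the only call of a member it changed was Eif2s2 in F vs G (-1.03, adjusted p = 0.0625). The block also moved the number of probes called to 319 in B vs G (535 without it), 975 in C vs G (1583) and 731 in D vs G (1485). Same-numbered samples of the same tissue from different groups had a median correlation of -0.03. The number of probes called moved most of all: in A vs G it ran from 51 (aorta alone) to 5580 (all 42 arrays with 14 means), in C vs G between 61 and 6415 under the same settings, and in KK/Ay against healthy mice from 1951 (scan day) to 9383 (processed signal). In the fit of 42 arrays, Raly also passed in B, C, D, E and F vs G. Signal near background limits a in healthy mice to a bound.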
